A study of Mus musculus with 30 samples.

Results

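Gene expression in the colon was compared between mice whose intestinal epithelial cells lacked Xbp1, Casp8 and TNFR1, called the TNFR1 triple knockout, and mice whose epithelial cells lacked only Xbp1 and Casp8, called the double knockout. The comparison holds 10 of the 30 libraries of the series, 5 mice of each genotype, chosen by the genotype in their labels (XBP1IEC-KO;Casp8IEC-KO for the double knockout, with TNFR1IEC-KO added for the other). Both groups carry the Xbp1 and Casp8 deletions, so by their labels they differ in the added loss of TNFR1. They also differed in the sex of the mice, and calls were more frequent near Tnfrsf1a, as given below. The labels place these deletions in IEC (intestinal epithelial cells), the cells that line the gut. The other groups used here are WT mice and the MLKL triple knockout (XBP1IEC-KO;Casp8IEC-KO;MLKLKO), whose label names no cell type for Mlkl, and, for single genes, the Xbp1 and the Casp8 single epithelial knockouts, with 5 mice each. The promoter that drives the deletion, the age of the mice and any treatment are stated in none of the sources used. Each library was made from total colon RNA of 1 mouse with a 3′ tag kit that reads the end of each transcript.

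TNFR1, encoded by Tnfrsf1a, is the receptor through which soluble tumour necrosis factor (TNF) acts on most cells. Bound TNF assembles a membrane complex of TRADD, RIPK1 and ubiquitin ligases that activates NF-kB, the transcription factor behind many inflammatory genes, and a later complex that holds FADD and caspase-8 and can kill the cell by apoptosis. Where caspase-8 is lacking, RIPK1 and RIPK3 can instead activate MLKL, which opens the plasma membrane in necroptosis. XBP1 is the transcription factor of the unfolded protein response that sustains secretory cells such as goblet and Paneth cells. Mice without epithelial Xbp1 or Casp8 are known for inflammation of the gut. The comparison asks how the colon of the double knockout differs when its epithelium cannot respond to TNF through TNFR1.

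Expression is given as CPM, read counts scaled to a common library size with TMM normalization, and 1 read was worth about 0.232 CPM in the median library. Library totals ran from 3516792.6 to 5823059.7 reads over the series. Colon markers were abundant in the 10 libraries, with Slc26a3, the colonic chloride exchanger, at 1135 to 2532 CPM and Muc2, the goblet cell mucin, at 286 to 868 CPM. The small intestinal genes Apoa4 and Sis were at 0 in 6 libraries each and reached at most 0.384 CPM. 2 libraries stood apart from their groups. TNFR1 triple knockout replicate 1 was at 31.3 on the first principal component (29.4% of the variance), among the double knockout libraries at 13.6 to 41.0, while the other 4 triple knockout libraries were at -5.35 to 8.13. It lay inside the double knockout range for 170 of the 363 genes called below (46.8%), against 6.89% to 14.6% for the other 4. Double knockout replicate 1 had 10.3% of its reads on mitochondrial genes, the lowest share of its group, which averaged 15.9%. Its counts also differed more broadly from the rest of its group. The chi-square per degree of freedom of 2 libraries against a common rate was 29.2 to 46.8 in pairs with it. In the other double knockout pairs it was 6.70 to 13.3. Read from Xist and Y-linked genes, the double knockout held 1 female (replicate 3) and 4 males and the triple knockout 4 females and 1 male (replicate 3), so sex was partly confounded with genotype. A fit with sex as a term is given beside list counts it lowered or raised by over 1.5 times, and within-sex values, each against a single mouse on 1 side, for some genes. Within-female values include TNFR1 triple knockout replicate 1 unless said otherwise. List counts are given with and without TNFR1 triple knockout replicate 1, and no gene named below as called against the double knockout with all mice lost its call without that library. For many genes the call ended when any 1 of 7 libraries was left out, double knockout replicates 1, 4 and 5 and triple knockout replicates 2 to 5, named below as the 7 deciding libraries. The RNA is from whole tissue, so fewer cells of a type and less RNA per cell cannot be told apart.

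Of 15458 genes tested, 363 (2.35%) differed between the TNFR1 triple knockout and the double knockout at an adjusted p under 0.05, 158 higher (1.02%) and 205 lower (1.33%) in the triple knockout. These are edgeR quasi-likelihood tests with Benjamini-Hochberg adjustment over all genes tested, and every adjusted p in the text comes from this test unless another is named. Without TNFR1 triple knockout replicate 1 the count was 917 (5.93%), 402 higher (2.6%) and 515 lower (3.33%), and 356 of the 363 genes were among them. The CPM of the groups did not overlap for 352 genes (2.28%; 1.05% higher, 1.22% lower) with all mice and for 1143 (7.39%; 3.55% higher, 3.85% lower) without that library. Shares called were 3.86% (1.87% higher, 1.99% lower) without replicate 1 of both groups, 0.479% (0.252% higher, 0.226% lower) without double knockout replicate 1 alone, and 1.71% (0.97% higher, 0.737% lower) with sex as a term. The median log2 difference over all genes was near 0 in both fits. Each list count below is to be set against the share over all genes in the same fit. A single call on a list is given for its gene and is not a result about the list. The genes called were set against the WT range. They were chosen by the same double and triple knockout libraries, so these counts are no test of a return to WT. The same counts were not made over all genes tested. Of the 205 lower genes, the double knockout mean was above the WT range for 180, and the triple knockout mean was within the WT range for 128, above it for 47 and below it for 30. Of the 158 higher genes, the double knockout mean was below the WT range for 148, and the triple knockout mean was within the range for 77, below it for 64 and above it for 17.

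**Figure D1:**
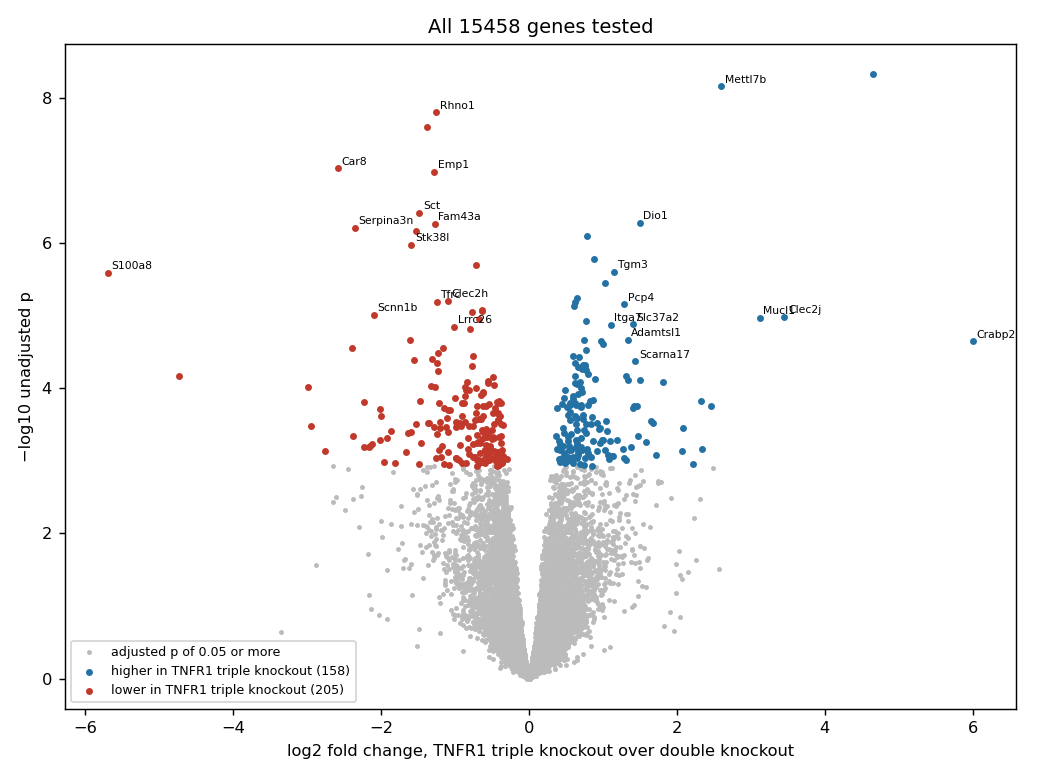
Each of the 15458 points is a gene, with the log2 fold change of the TNFR1 triple knockout over the double knockout on the horizontal axis and −log10 of the unadjusted p on the vertical axis. Blue points are the 158 genes called higher, red points the 205 called lower, grey points the rest, and names mark genes of small p with an absolute log2 change of at least 1.

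The targeted genes were checked first. Tnfrsf1a was at 104, 81.8, 74.5, 112 and 107 CPM in double knockout replicates 1 to 5 and at 75.4, 61.5, 53.3, 52.4 and 57.7 CPM in TNFR1 triple knockout replicates 1 to 5. Its level was below every double knockout library in 4 of the 5 triple knockout mice, and only replicate 1 reached the lowest of them. The log2 difference was -0.68 ± 0.13 (SE) (adjusted p = 0.00557), and -0.77 without replicate 1 (adjusted p = 0.00097). In a fit of only the 2 groups the call ended (adjusted p = 0.0813). Against the MLKL triple knockout, whose label names no TNFR1 deletion, Tnfrsf1a differed by -0.25 and was not called (adjusted p = 0.605). The lower level against the double knockout is thus no check of the deletion. The deletion is epithelial and the RNA is from the whole colon. No source used here names the exons removed, and a 3′ tag outside the deleted part checks nothing. The gene spans chr6:125349362-125362484 (plus strand, GRCm38). Within females the log2 difference was -0.27 and within males -0.93. Xbp1, deleted in both groups, was at 106, 97.4, 108, 139.5 and 70.4 CPM in the double knockout and at 109, 52.8, 52.1, 53.6 and 62.9 CPM in the triple knockout. Replicate 1 of the triple knockout stood within the double knockout range and the other 4 stood below it. The difference missed the threshold with all mice (-0.66, adjusted p = 0.0738) and passed it without replicate 1 (-0.91, adjusted p = 0.0042). With all mice Xbp1 passed with sex as a term (-0.83, adjusted p = 0.0383), in DESeq2, in limma voom and with no low-count filter. In the fit of only the 2 groups it missed the threshold (-0.65, adjusted p = 0.214). Casp8 differed by -0.71 (adjusted p = 0.0998) and by -0.91 without replicate 1 (adjusted p = 0.0228). Mlkl did not pass in either fit (-0.39, adjusted p = 0.656, then -0.91, adjusted p = 0.179).

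Increases with the smallest p were led by genes of the colon surface and of metabolism. Mettl7b was at 6.87, 7.67, 7.37, 2.47 and 3.64 CPM in double knockout replicates 1 to 5 and at 25.8, 37.5, 14.9, 41.8 and 52.5 CPM in TNFR1 triple knockout replicates 1 to 5. Every triple knockout mouse was above every double knockout mouse, and WT mice averaged 52.1 ± 11.1 CPM. Mettl7b, an alkyl thiol methyltransferase of lipid droplets and the endoplasmic reticulum, differed by 2.60 ± 0.331 (SE) on the log2 scale (adjusted p = 5.38e-05), by 2.68 without replicate 1, by 2.42 within females and 1.50 within males. Dio1 was at 12.9, 19.2, 13.2, 6.18 and 7.74 CPM in double knockout replicates 1 to 5 and at 17.5, 33.3, 36.4, 34.02 and 46.2 CPM in TNFR1 triple knockout replicates 1 to 5. The groups overlapped through replicate 1 of the triple knockout alone. Dio1, the deiodinase that activates thyroid hormone, rose by 1.50 ± 0.239 (SE) (adjusted p = 0.000936; 1.66 without replicate 1). Slc37a2 was at 39.4, 41.4, 51.8, 44.8 and 31.2 CPM in double knockout replicates 1 to 5 and at 96.5, 116, 115, 69.2 and 157 CPM in TNFR1 triple knockout replicates 1 to 5. All 5 triple knockout mice were above the double knockout, and the log2 difference of this phosphate-linked sugar phosphate transporter was 1.41 ± 0.272 (SE) (adjusted p = 0.00613; 1.45 without replicate 1). Tgm3, a transglutaminase that crosslinks proteins, rose by 1.15 ± 0.2 (SE) (adjusted p = 0.00235), with 640.1, 1301, 1352, 788 and 1520 CPM in the triple knockout against at most 644 CPM in the double knockout. Replicate 1 was just below that highest value. The integrin subunit Itga7 rose by 1.11 and the matrix protein Adamtsl1 by 1.34 (adjusted p = 0.00613 and 0.00859). Mucl1, a small mucin-like protein, rose by 3.12 (adjusted p = 0.00557) from few reads: the double knockout libraries held 0 to 1.53 CPM and the triple knockout 0.486, 3.75, 8.43, 4.60 and 4.53 CPM. Crabp2, which carries retinoic acid in the cell, had the largest fitted difference of the genes named (5.999 ± 1.18 (SE), adjusted p = 0.00859), with 0.164, 0.767, 0, 0 and 0 CPM in the double knockout and 11.4, 10.3, 0, 20.2 and 21.7 CPM in the triple knockout. Its reads were few in the double knockout and none in triple knockout replicate 3, the male, and the call ended in limma voom. The calls of these 8 genes held with each of the 10 libraries left out in turn. In a fit of only the 2 groups, those of Tgm3, Mucl1, Itga7 and Adamtsl1 missed the threshold (adjusted p = 0.0543, 0.111, 0.101 and 0.149).

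Decreases with the smallest p included an epithelial repair gene, a hormone, an acute-phase gene and an iron uptake gene. Emp1 was at 149, 183, 187, 168 and 169 CPM in double knockout replicates 1 to 5 and at 77.8, 49.5, 104, 55.2 and 65.2 CPM in TNFR1 triple knockout replicates 1 to 5. The groups did not overlap, and the triple knockout values lay around the WT mean of 57.9 ± 12.4 CPM. Emp1, an epithelial membrane protein that marks regenerating and injured epithelium, fell by 1.28 on the log2 scale (SE 0.187, adjusted p = 0.000272), and differed by -1.59 within females and -0.68 within males. Serpina3n was at 98.4, 22.8, 45.6, 98.9 and 120.3 CPM in double knockout replicates 1 to 5 and at 14.6, 10.8, 20.6, 18.2 and 11.3 CPM in TNFR1 triple knockout replicates 1 to 5. The highest triple knockout value was below the lowest double knockout value. This acute-phase protease inhibitor differed by -2.35 ± 0.377 (SE) (adjusted p = 0.000959; -2.34 without replicate 1). Sct was at 16.2, 7.16, 13.2, 12.6 and 9.11 CPM in double knockout replicates 1 to 5 and at 5.35, 4.22, 5.10, 3.202 and 3.17 CPM in TNFR1 triple knockout replicates 1 to 5. Sct, which encodes the gut hormone secretin, differed by -1.48 ± 0.231 (SE) (adjusted p = 0.000852; -1.58 without replicate 1) with no overlap, and it was the 1 gene of 12 measured on the enteroendocrine list that passed, as without replicate 1. Car8, a member of the carbonic anhydrase family, differed by -2.58 ± 0.374 (SE) (adjusted p = 0.000272), with 18.1, 4.86, 6.77, 18.8 and 30.3 CPM in the double knockout and 4.86, 1.64, 3.33, 1.80 and 1.58 CPM in the triple knockout. Only triple knockout replicate 1 reached the double knockout range. Tfrc, the transferrin receptor that takes up iron, differed by -1.25 (adjusted p = 0.00463), Fam43a by -1.27 (adjusted p = 0.000936) and the ion channel subunit gene Lrrc26 by -1.01 (adjusted p = 0.00631). Calls of these 7 genes held in each of the 10 leave-outs. In the fit of only the 2 groups Tfrc, Fam43a and Lrrc26 missed the threshold (adjusted p = 0.115, 0.0542 and 0.13).

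**Figure D2:**
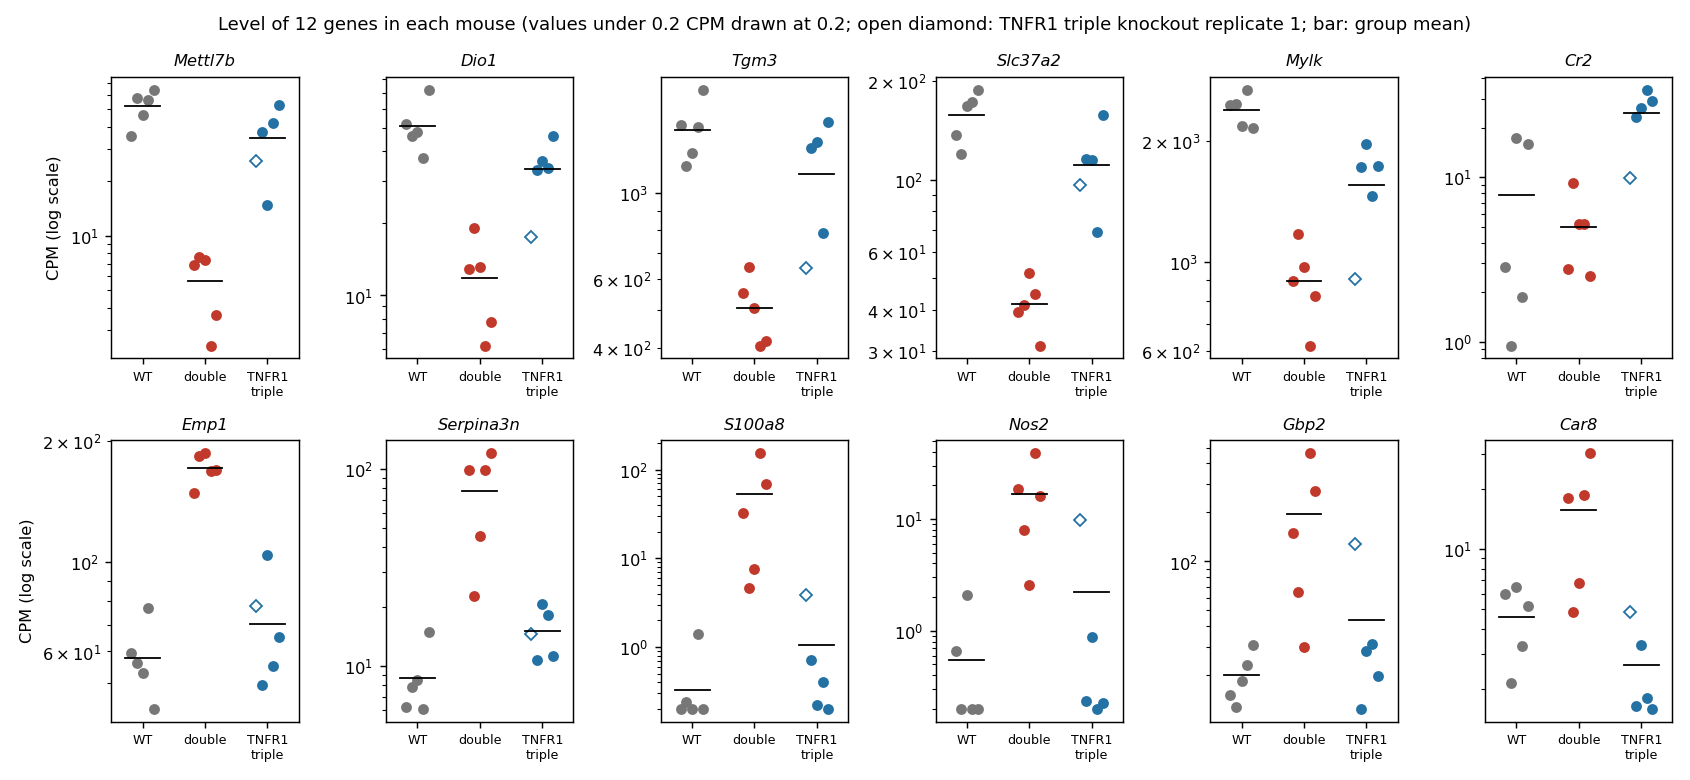
CPM on a log axis of 12 genes in WT, double knockout and TNFR1 triple knockout mice, 5 each; points are mice, bars are group means and the open diamond is TNFR1 triple knockout replicate 1. Values under 0.2 CPM are drawn at 0.2. Mettl7b, Slc37a2 and Cr2 are higher and Emp1, Serpina3n and S100a8 lower in all 5 triple knockout mice than in any double knockout mouse, while for Nos2, Gbp2 and Mylk the diamond lies among the double knockout points.

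TNF itself and its receptors were described as a list of 10 measured genes. Only Tnfrsf1a passed the test with all mice; the list's median log2 difference was -0.29, against a median near 0 over all genes. Tnf was at 12.1, 6.91, 5.98, 25.97 and 17.1 CPM in double knockout replicates 1 to 5 and at 10.2, 0.704, 0.222, 5.20 and 0.679 CPM in TNFR1 triple knockout replicates 1 to 5. Replicate 1 of the triple knockout lay among the double knockout mice, and the other triple knockout mice were below every double knockout mouse. The log2 difference was -1.99 (adjusted p = 0.111), and -2.92 without replicate 1 (adjusted p = 0.0195). Tnfsf10, the death ligand TRAIL, likewise passed only without that library (-1.68, adjusted p = 0.0256; -1.17, adjusted p = 0.143 with it). The second TNF receptor, Tnfrsf1b, did not pass in either fit (-0.30, adjusted p = 0.602, then -0.50, adjusted p = 0.307). The lymphotoxin beta receptor Ltbr, at 159, 136, 146, 138 and 138 CPM in the triple knockout, differed by -0.07 (adjusted p = 0.811).

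Of the 19 measured genes of the TNFR1 signalling complex, none passed with all mice (3 at an unadjusted p under 0.05, and 0 called by DESeq2 or limma voom), and the median was -0.06. Tradd, the adaptor that binds the receptor, had the smallest p on the list (-0.35, adjusted p = 0.108). Rbck1, a subunit of the linear ubiquitin ligase, passed without replicate 1 (-0.37, adjusted p = 0.0238). Among 18 measured genes of necroptosis, pyroptosis and apoptosis 2 fell with all mice, among them Gsdmd (-0.73, adjusted p = 0.0446), the pore former of pyroptosis. Without replicate 1, 6 fell and 2 rose, and with sex as a term none passed. Ripk3, the kinase that activates MLKL, was among those that fell (-1.14, adjusted p = 0.00895), and the colonic gasdermins Gsdmc2 and Gsdmc4 were those that rose (0.88 and 0.89, adjusted p = 0.033 and 0.028). The Gsdmc genes are near-identical copies between which reads can be divided, so their separate values are uncertain. Gsdmd differed by 0.00762 within females and by -0.80 within males. Without replicate 1, a female, the Gsdmd difference within females was negative. The Gsdmd call ended without any 1 of the 7 deciding libraries (adjusted p up to 0.23).

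NF-kB target genes were read on a list of 14 measured subunits and feedback targets, of which 2 fell with all mice and 4 without replicate 1 (medians -0.26 and -0.41). Nfkbia was at 446, 429, 342, 584 and 525 CPM in double knockout replicates 1 to 5 and at 399, 249.8, 352, 282 and 266 CPM in TNFR1 triple knockout replicates 1 to 5. Replicates 1 and 3 of the triple knockout reached the double knockout range and the other 3 were below it. Nfkbia, the inhibitor that NF-kB induces to end its own activity, differed by -0.59 ± 0.15 (SE) (adjusted p = 0.0341), and by -0.69 without replicate 1 (adjusted p = 0.00692). Tnfaip2 differed by -1.31 ± 0.294 (SE) (adjusted p = 0.0182; -1.70, adjusted p = 0.000829 without replicate 1). With sex as a term the list count was 1, since the Nfkbia call ended (adjusted p = 0.102). Nfkbia differed by -0.19 within females and -0.49 within males, and Tnfaip2 by -0.07 and -1.93. Nfkbiz and Icam1, an NF-kB cofactor and an adhesion molecule, joined them without replicate 1 (-0.84 and -1.21, adjusted p = 0.00997 and 0.0442). Without double knockout replicate 4 or 5, or without triple knockout replicate 2, 4 or 5, both calls ended, and the Nfkbia call ended also without double knockout replicate 1 (adjusted p up to 0.109 for Nfkbia and 0.0846 for Tnfaip2).

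The promoters of Nfkbia, an NF-kB target, and Gbp2, an interferon target, are shown because both genes fell and each holds the motif of its pathway. The windows of Tnfaip2 and Psmb10, which also fell, held no NF-kB motif and no interferon element, respectively, and that of the antimicrobial gene Lcn2 held neither. Genes that rose held such motifs too: the window of Mylk an interferon element and that of Des an NF-kB match. These windows are not printed. Each window runs from 250 bases before to 50 after the RefSeq start (GRCm38.p6), 5′ to 3′ on the gene's strand, with the motif in capitals: a match to the NF-kB motif in Nfkbia (chr12:55492598-55492897, minus strand) and to the interferon-stimulated response element GAAANNGAAA, found on the opposite strand, in Gbp2 (chr3:142620413-142620712, plus strand).
Nfkbia: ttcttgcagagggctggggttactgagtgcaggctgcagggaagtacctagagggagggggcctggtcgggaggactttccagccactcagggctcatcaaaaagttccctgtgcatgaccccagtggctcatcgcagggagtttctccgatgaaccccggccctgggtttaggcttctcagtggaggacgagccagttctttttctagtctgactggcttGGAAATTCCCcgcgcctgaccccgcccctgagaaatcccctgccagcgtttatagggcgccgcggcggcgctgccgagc
Gbp2: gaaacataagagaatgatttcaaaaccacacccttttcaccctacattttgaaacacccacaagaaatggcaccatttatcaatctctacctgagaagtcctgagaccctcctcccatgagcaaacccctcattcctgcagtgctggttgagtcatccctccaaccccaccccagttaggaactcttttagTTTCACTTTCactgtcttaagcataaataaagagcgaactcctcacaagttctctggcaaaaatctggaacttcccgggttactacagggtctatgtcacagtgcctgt
Both strands were searched and the motifs may overlap others. The NF-kB motif was found in 4.51% and the interferon element in 3.44% of all 32851 promoter windows. By gene, the NF-kB motif was in 6 of the 10 NF-kB list genes with a window, against 5.14% of 27025 genes. The interferon element was in 10 of 22 genes of the interferon gamma list, against 3.99%. It was also in 11 of 19 genes of the type I interferon list, where no gene was called. The NF-kB motif was in 7 of the 22 interferon gamma genes and in 3 of 13 genes of the smooth muscle list, where genes rose. These shares describe the lists and not the genes that fell. A match is a description of the letters and no evidence of binding.

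Epithelial antimicrobial and acute-phase genes were the list with the largest share called lower with all mice among those with 10 or more measured genes: 5 of 14 fell, against 1.33% of all genes, and 9 fell and 1 rose without replicate 1 (medians -1.86 and -2.37). The mean log2 CPM of the list was 5.65, 4.91, 4.89, 5.798 and 5.50 in double knockout replicates 1 to 5 and 5.01, 3.38, 3.48, 3.60 and 3.23 in triple knockout replicates 1 to 5, with 2.58 to 3.46 in WT. Replicate 1 of the triple knockout was level with the lower double knockout mice, and the other 4 were well below all of them. Nos2 was at 18.5, 7.93, 2.59, 38.6 and 15.9 CPM in double knockout replicates 1 to 5 and at 9.73, 0.235, 0.888, 0 and 0.226 CPM in TNFR1 triple knockout replicates 1 to 5. Nos2, the inducible nitric oxide synthase, was thus at or under 4 reads in 4 of the 5 triple knockout mice, and replicate 1 stood among the double knockout. The log2 difference was -2.95 ± 0.733 (SE) (adjusted p = 0.029), and -5.53 without replicate 1 (adjusted p = 0.000308). Lcn2, the lipocalin that withholds iron from bacteria, differed by -2.23 ± 0.519 (SE) (adjusted p = 0.0222). Pla2g2a, a bactericidal phospholipase, and Saa3, an acute-phase protein, also fell (-2.01 and -2.76, adjusted p = 0.0357 and 0.0409; -2.82 and -4.74 without replicate 1), and Serpina3n is the fifth. Retnlb, Slpi, Duox2 and Duoxa2 passed only without replicate 1 (-5.92, -3.10, -1.54 and -1.91), and Lyz1, the Paneth cell lysozyme, was then the 1 gene that rose (1.41, adjusted p = 0.0234). Within females Nos2 differed by -0.08 and Lcn2 by -0.04, and within males by -4.46 and -2.46. The only double knockout female had Nos2 at 2.59 CPM, and the triple knockout females, replicates 1, 2, 4 and 5, had 9.73, 0.235, 0 and 0.226 CPM. Lcn2 was at 1.99 CPM in that double knockout female and at 0.80 to 2.92 CPM in the 5 triple knockout mice. With sex as a term 2 genes of the list fell. The calls of Nos2, Pla2g2a and Saa3 ended without any 1 of the 7 deciding libraries (adjusted p up to 0.111, 0.103 and 0.163), and the Lcn2 call without double knockout replicate 1 or 4 or triple knockout replicate 2, 4 or 5 (adjusted p up to 0.0803); without double knockout replicate 1 the list count was 1, Serpina3n.

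Neutrophil calgranulins were close to 0 in 4 of the 5 triple knockout mice. S100a8 was at 32.04, 4.60, 7.57, 152 and 69.02 CPM in double knockout replicates 1 to 5 and at 3.89, 0.704, 0.222, 0.4 and 0 CPM in TNFR1 triple knockout replicates 1 to 5. The groups did not overlap and WT mice averaged 0.327 ± 0.607 CPM. S100a8, a calgranulin of neutrophils, differed by -5.69 ± 0.993 (SE) on the log2 scale (adjusted p = 0.00235), and its partner S100a9 by -4.73 ± 1.03 (SE) (adjusted p = 0.0161), both with no overlap. The sizes rest on 0 to 17 S100a8 reads in the triple knockout libraries. Of the 17 neutrophil genes listed only 3 were measured, which limits what the list shows. The third, Ly6g, was at 245, 158, 226, 286 and 234 CPM in the triple knockout and 202 ± 62.3 CPM in WT, and belongs to a family of similar copies (-0.73, adjusted p = 0.0671). The S100a9 call ended without double knockout replicate 4 or triple knockout replicate 2 (adjusted p up to 0.0803), in DESeq2 and in the fit of only the 2 groups (adjusted p = 0.0675), and the S100a8 call held in all 10 leave-outs but missed the threshold in limma voom.

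Cytokines and chemokines had a median of -1.02 over 11 measured genes, of which 1 fell with all mice and 6 fell and 1 rose without replicate 1. Ccl5 was at 10.6, 5.37, 4.18, 24.2 and 13.9 CPM in double knockout replicates 1 to 5 and at 5.11, 1.88, 2.88, 2.40 and 2.04 CPM in TNFR1 triple knockout replicates 1 to 5. Ccl5, which attracts T cells, was lower in all triple knockout mice but replicate 1 than in any double knockout mouse. It differed by -2.02 ± 0.478 (SE) (adjusted p = 0.0232). Il1b was at 10.3, 9.72, 6.97, 53.4 and 20.04 CPM in double knockout replicates 1 to 5 and at 11.4, 0.938, 2.88, 4.40 and 1.13 CPM in TNFR1 triple knockout replicates 1 to 5. The same split of replicate 1 from the rest was seen for this central inflammatory cytokine, whose difference missed the threshold with all mice (-2.27, adjusted p = 0.0792) and passed without replicate 1 (-3.05, adjusted p = 0.0185). The neutrophil chemokines Cxcl1, Cxcl2 and Cxcl5 passed only without it (-2.28, -3.19 and -1.30). Il18, an epithelial cytokine, was the gene that rose there (0.73, adjusted p = 0.0378). Without double knockout replicate 1, 4 or 5 or triple knockout replicate 2, 4 or 5 the Ccl5 call ended (adjusted p up to 0.101).

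Interferon gamma response genes showed the contrast between replicate 1 and the other triple knockout mice. With all mice 3 of 27 measured genes fell (median -1.16), and without it 18 fell and none rose (median -1.86). The mean log2 CPM of the list was 5.62, 5.11, 4.56, 7.01 and 6.50 in double knockout replicates 1 to 5 and 6.13, 3.81, 4.47, 4.47 and 3.88 in triple knockout replicates 1 to 5, with 3.40 to 3.93 in WT. Replicate 1 was higher than 3 of the double knockout mice, while the other 4 were lower than all 5. Gbp2 was at 150.1, 64.95, 29.7, 462 and 269.7 CPM in double knockout replicates 1 to 5 and at 128, 12.4, 28.2, 31.01 and 19.7 CPM in TNFR1 triple knockout replicates 1 to 5. Gbp2, a guanylate-binding protein whose promoter is shown above, was below every double knockout mouse in replicates 2, 3 and 5 of the triple knockout. It differed by -2.15 ± 0.569 (SE) (adjusted p = 0.0397), and by -3.08 without replicate 1 (adjusted p = 0.00187). Ido1, which degrades tryptophan, and Psmb10, an immunoproteasome subunit, were the others that fell with all mice (-2.98 and -0.99, adjusted p = 0.0182 and 0.0278; -4.43 and -1.23 without replicate 1). The chemokines Cxcl9 and Cxcl10, the GTPase Igtp, the peptide transporter Tap1 and the class I molecules H2-K1 and H2-D1 passed without replicate 1 (-4.20, -3.45, -2.94, -1.98, -1.01 and -1.17). Within females Gbp2 differed by 0.68, against a single double knockout female at 29.7 CPM, and within males by -3.07. The triple knockout females, replicates 1, 2, 4 and 5, were at 128, 12.4, 31.01 and 19.7 CPM. Without replicate 1 the Gbp2 difference within females was negative. With sex as a term 1 gene of the list, Psmb10, fell (adjusted p = 0.0337). The calls of Gbp2 and Psmb10 ended without any 1 of the 7 deciding libraries, and that of Ido1 without double knockout replicate 4 or triple knockout replicate 2, 4 or 5 (adjusted p up to 0.149, 0.0997 and 0.102). Of 9 class II presentation genes 1 fell with all mice, the peptide loader H2-DMb1 (-1.48, adjusted p = 0.0481), and 4 fell and 1 rose without replicate 1, and none passed with sex as a term. The H2-DMb1 call ended in the same leave-outs as that of Gbp2 (adjusted p up to 0.149).

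Type I interferon genes did not pass in either fit. None of 26 measured genes was called by edgeR, DESeq2 or limma voom, 0 were at an unadjusted p under 0.05 with all mice and 1 without replicate 1, with a median of 0.15 with all mice and -0.84 without replicate 1. The mean log2 CPM of this list in replicate 1 was 5.69, above every other library of the 10, which ran from 2.53 to 4.72. Oas2, an antiviral RNA sensor, was at 46.2 CPM in replicate 1 and at 0.226 to 2.20 CPM in the other 4 triple knockout mice.

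**Figure D3:**
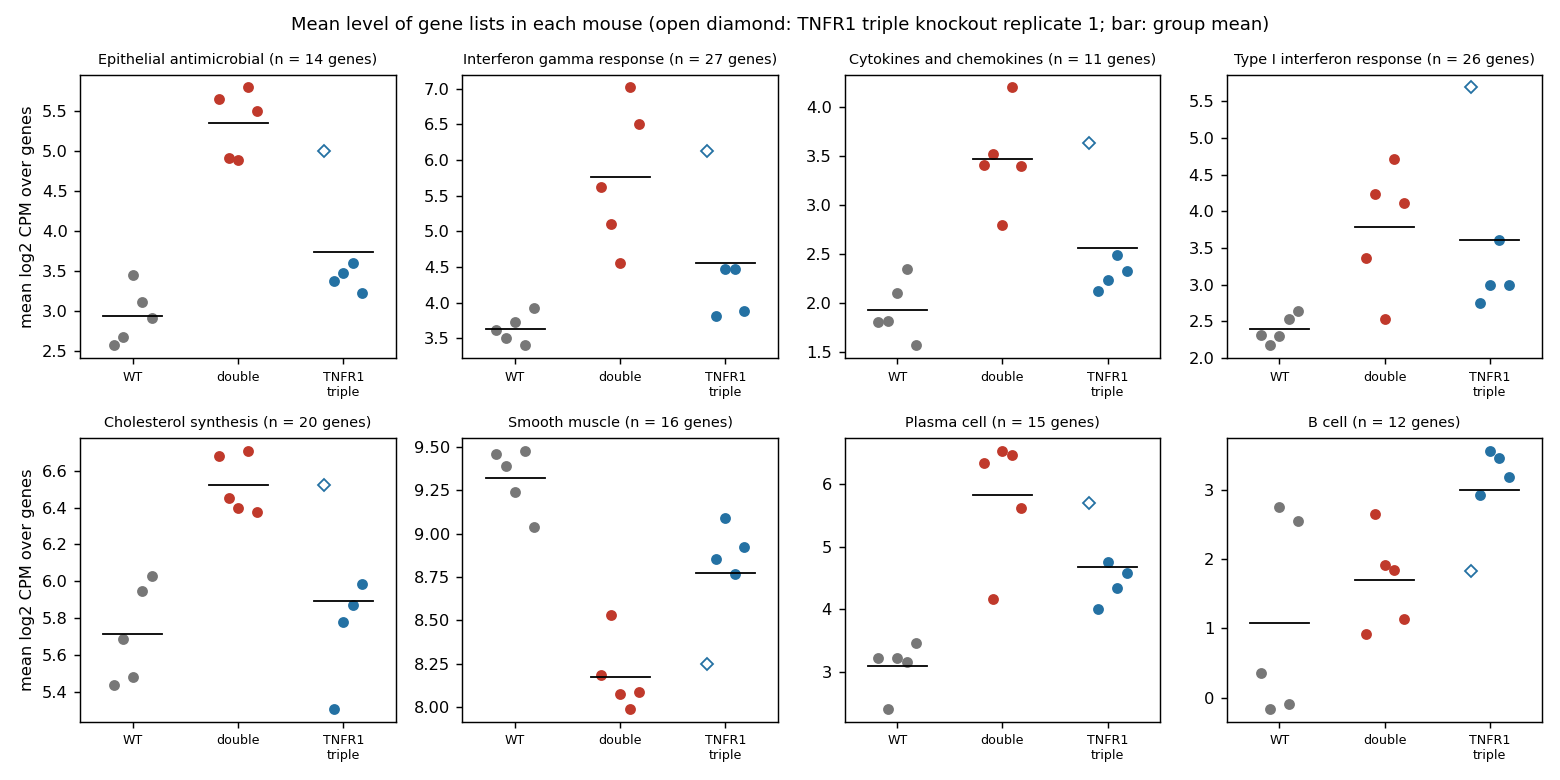
Mean log2 CPM over the measured genes of 8 lists in WT, double knockout and TNFR1 triple knockout mice, 5 each; points are mice, bars are group means and the open diamond is TNFR1 triple knockout replicate 1. In the antimicrobial and interferon gamma panels the 4 other triple knockout mice lie below every double knockout mouse and the diamond lies among them, and in the type I interferon panel the diamond, at 5.69, is the highest point.

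Markers of immune cells moved in different directions. B cell genes had a median of 1.55 over 12 measured genes, with 1 called higher with all mice and 3 without replicate 1, and 0 with sex as a term and in limma voom. Cr2 was at 2.78, 9.21, 5.18, 5.19 and 2.51 CPM in double knockout replicates 1 to 5 and at 9.97, 23.2, 26.4, 34.02 and 29.2 CPM in TNFR1 triple knockout replicates 1 to 5. The complement receptor Cr2, of mature and follicular B cells and follicular dendritic cells, was higher in every triple knockout mouse than in any double knockout mouse (2.34 ± 0.621 (SE), adjusted p = 0.0404). WT mice varied widely, at 2.86, 0.948, 17.2, 1.86 and 15.9 CPM. Ighd, the IgD heavy chain, was among those that passed without replicate 1 (2.70, adjusted p = 0.0219). Plasma cell genes went the other way. With all mice 1 of 15 fell (median -1.27), without replicate 1 10 fell (median -1.66), and with sex as a term 4. Mzb1 was at 22.2, 11.5, 32.7, 41.5 and 15.03 CPM in double knockout replicates 1 to 5 and at 16.8, 6.10, 7.77, 8.60 and 8.60 CPM in TNFR1 triple knockout replicates 1 to 5. Replicate 1 reached the double knockout range and the other 4 triple knockout mice were below it. Mzb1, a chaperone of immunoglobulin assembly, differed by -1.37 ± 0.337 (SE) (adjusted p = 0.0283), by -1.71 within females and -1.53 within males. Jchain, which joins secreted IgA, and Igha passed without replicate 1 (-1.81 and -1.79, adjusted p = 0.0186 and 0.0299), where Igha averaged 6218 ± 2880 CPM in the double knockout and 2580 ± 1847 CPM in all 5 triple knockout mice. Xbp1 is itself a plasma cell gene and is on that list. Of 20 monocyte and macrophage genes 1 fell, the signalling adaptor Tyrobp (-1.09, adjusted p = 0.0313), and 5 without replicate 1 and 0 with sex as a term, and none of 9 T and NK cell genes passed in either fit or by DESeq2 or limma voom, with 3 at an unadjusted p under 0.05. The Cr2 call ended with sex as a term (adjusted p = 0.0794), in limma voom and without any 1 of the 7 deciding libraries, the Mzb1 call without double knockout replicate 1 or 4 or triple knockout replicate 2, 3, 4 or 5, and the Tyrobp call without double knockout replicate 1, 4 or 5 or triple knockout replicate 2, 4 or 5 (adjusted p up to 0.12, 0.105 and 0.0999).

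Of 19 measured goblet cell genes 5 fell with all mice, Muc2 away from the WT level and Spink4 towards it. Without replicate 1, 8 fell and 1 rose (medians -0.30 and -0.41), with sex as a term 4 fell, and none passed without double knockout replicate 1 or in the fit of only the 2 groups. Muc2, the mucin that forms the colonic mucus, was at 663, 391, 766, 868 and 798 CPM in the double knockout, at 746, 457, 300, 286 and 362 CPM in the triple knockout and at 1597, 1765, 2010, 2003 and 2389 CPM in WT. All WT mice were above both knockout groups, and the triple knockout mice other than replicate 1 were below at least 4 of the 5 double knockout mice. Muc2 differed by -0.70 (adjusted p = 0.0457) and by -0.99 without replicate 1 (adjusted p = 0.000775). Spink4 was at 525, 335, 536, 458 and 403 CPM in double knockout replicates 1 to 5 and at 408, 192, 252, 159 and 199 CPM in TNFR1 triple knockout replicates 1 to 5. This goblet cell protease inhibitor averaged 186 ± 39.4 CPM in WT, near the triple knockout mice other than replicate 1, and differed by -0.90 ± 0.218 (SE) (adjusted p = 0.0262; -1.17 without replicate 1). The goblet cell transcription factor Spdef, the glycosyltransferase Galnt12 and the trefoil peptide Tff3 also fell (-0.76, -0.62 and -0.58, adjusted p = 0.0382, 0.0311 and 0.0298). The Spink4 call ended without double knockout replicate 1 or 4 or triple knockout replicate 2, 4 or 5 (adjusted p up to 0.0882). Those of Tff3, Galnt12, Spdef and Muc2 ended without any 1 of the 7 deciding libraries, and that of Muc2 also without double knockout replicate 3 (adjusted p up to 0.118, 0.111, 0.140 and 0.146).

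Absorptive colonocyte genes were mixed, with 2 of 24 higher (Mettl7b and Dio1) and 4 lower with all mice, 3 higher and 4 lower without replicate 1, and 2 each with sex as a term. Krt20, a keratin of mature surface cells, fell (-0.66, adjusted p = 0.0272; -0.83 without replicate 1), from 915 ± 169.6 CPM in the double knockout to 579 ± 155 CPM, with 389 ± 31.6 CPM in WT; this call ended without double knockout replicate 1 or 4 or triple knockout replicate 2, 3, 4 or 5 (adjusted p up to 0.0935). Scnn1b, a subunit of the epithelial sodium channel, was at 68.01, 9.46, 7.37, 43.3 and 30.8 CPM in the double knockout and at 6.81, 8.21, 8.65, 6.40 and 7.47 CPM in the triple knockout. The double knockout mice spread widely, and replicates 2 and 3 were close to the triple knockout, whose 5 values hardly varied. Scnn1b differed by -2.09 ± 0.398 (SE) (adjusted p = 0.00545), by -2.06 without replicate 1, by -0.03 within females and -2.14 within males, and its call ended in limma voom and in the fit of only the 2 groups. On the repair and EGF receptor ligand list Emp1 was the 1 gene of 16 that fell with all mice, and 5 fell without replicate 1, among them Sprr1a and Ly6a, markers of injured epithelium (-2.90 and -1.70, adjusted p = 0.000356 and 0.0299). Of 16 stem cell and WNT genes 1 rose, the ligand Wnt8b (1.34, adjusted p = 0.017), and 1 fell, the ion cotransporter Slc12a2 (-0.41, adjusted p = 0.0222). Of 22 proliferation genes 1 fell, the replication licensing factor Mcm3 (-0.59, adjusted p = 0.0475). The counts of the stem cell and WNT list and of the proliferation list were the same without replicate 1. No member of the lists of 17 junction genes or 7 tuft cell genes passed in either fit or by DESeq2 or limma voom, with 3 and 0 at an unadjusted p under 0.05. The Wnt8b call ended without double knockout replicate 1 or triple knockout replicate 2, that of Slc12a2 without double knockout replicate 4 or 5 or triple knockout replicate 2 or 5, and that of Mcm3 in every leave-out but double knockout replicate 2 and triple knockout replicate 1 (adjusted p up to 0.0603, 0.0787 and 0.129).

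Among metabolic and stress lists, cholesterol synthesis stood lower. Of 20 measured genes 3 fell with all mice, among them Pmvk and Lss (-0.88 and -0.92, adjusted p = 0.0222 and 0.0284), and 15 without replicate 1 (medians -0.68 and -0.87), 8 when double knockout replicate 1 was left out as well. None passed with sex as a term, without double knockout replicate 1 alone or in the fit of only the 2 groups (adjusted p = 0.0569 for Pmvk and 0.09 for Lss with sex as a term). Lss was at 44.8, 28.6, 28.7, 42.05 and 35.5 CPM in double knockout replicates 1 to 5 and at 26.3, 12.7, 18.9, 16.4 and 20.8 CPM in TNFR1 triple knockout replicates 1 to 5. Lss, the lanosterol synthase, was lower in every triple knockout mouse than in any double knockout mouse. The drug efflux pump Abcb1a rose as the 1 of 21 xenobiotic genes called (0.62, adjusted p = 0.0222), and without replicate 1 Cyp4f14 fell as well (-0.93, adjusted p = 0.00775). Of 33 XBP1 target genes 1 fell, Herpud1 of endoplasmic reticulum degradation (-0.56, adjusted p = 0.0457), against 1.33% of all genes called lower. The list median was -0.12. Without replicate 1 2 fell, beside 4 of 12 stress sensors and chaperones, of which none passed with all mice (2 at an unadjusted p under 0.05, 2 called by DESeq2, 1 by limma voom and, with sex as a term, Xbp1). Asns, an ATF4 target that makes asparagine, was the 1 of 16 genes of that list that fell (-0.84, adjusted p = 0.0174), with 1 also without replicate 1. No gene passed with all mice among 7 mitochondrially encoded, 7 metallothionein and zinc, 12 heat shock, 4 squamous, 5 small intestinal and Paneth cell or 2 eosinophil and mast cell genes measured, with 1, 1, 1, 1, 2 and 1 at an unadjusted p under 0.05; DESeq2 called 1 mitochondrial gene, and limma voom 1 mitochondrial and 1 metallothionein and zinc gene. Of 13 immediate early genes 1 fell, the AP-1 subunit Jund (-0.62, adjusted p = 0.0262; -0.64 without replicate 1, where 2 fell). Without replicate 1 the zinc transporter Slc39a4 fell (-1.03, adjusted p = 0.00641), Lyz1 rose, and no mitochondrial, heat shock, squamous or eosinophil and mast cell gene passed. The calls of Lss and Herpud1 ended without any 1 of the 7 deciding libraries (adjusted p up to 0.0961 and 0.212). Without double knockout replicate 1 or triple knockout replicate 2 the calls of Abcb1a, Pmvk, Asns and Jund ended; so did that of Abcb1a without double knockout replicate 5 or triple knockout replicate 3 or 5, of Pmvk without double knockout replicate 4 or triple knockout replicate 4 or 5, of Asns without double knockout replicate 4 or triple knockout replicate 5, and of Jund without double knockout replicate 4 or triple knockout replicate 3 or 4 (adjusted p up to 0.0825, 0.0808, 0.0692 and 0.0938).

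Of 16 smooth muscle genes measured 9 rose and none fell with all mice, against 1.02% of all genes called higher, 14 rose without replicate 1 and 13 with sex as a term (medians 0.62 and 0.70 in the first pair of fits). Without double knockout replicate 1 4 rose, and in the fit of only the 2 groups 1. The mean log2 CPM of the list was 8.19, 8.53, 8.07, 7.99 and 8.09 in double knockout replicates 1 to 5 and 8.25, 8.85, 9.09, 8.77 and 8.92 in triple knockout replicates 1 to 5, with 9.04 to 9.48 in WT. The 4 triple knockout mice other than replicate 1 were above every double knockout mouse. Mylk was at 896, 1175, 971, 619 and 824 CPM in double knockout replicates 1 to 5 and at 909, 1720, 1963, 1459 and 1728 CPM in TNFR1 triple knockout replicates 1 to 5. Mylk, the kinase that triggers smooth muscle contraction, rose by 0.79 ± 0.172 (SE) (adjusted p = 0.0156), and by 0.94 without replicate 1 (adjusted p = 0.000829), against 2388 ± 218 CPM in WT. Acta2, Des, Myh11 and Synpo2 of the contractile and anchoring apparatus also rose (0.69, 0.87, 0.67 and 0.73, adjusted p = 0.0222, 0.0222, 0.042 and 0.0143), and so did the calmodulin regulator Pcp4 (1.29 ± 0.24 (SE), adjusted p = 0.00474), whose call held in all 10 leave-outs. Of 20 fibroblast and matrix genes 3 rose, Lum, Fbln1 and Fn1 (0.92, 0.64 and 0.48), and Timp2, an inhibitor of matrix proteases, rose as the 1 of 12 of its list (0.64, adjusted p = 0.0271). Without replicate 1 these counts were 4 and 1, and with sex as a term 1 and 1. No gene of 15 endothelial, 14 neuron and glia or 8 adipose genes passed with all mice, without replicate 1, or by DESeq2 or limma voom (3, 3 and 4 at an unadjusted p under 0.05 with all mice); with sex as a term 1 adipose gene, Plin4, rose (0.83, adjusted p = 0.0306). How much muscle wall each sample held is not given in the sources used here, and its part in the result was not tested. The Mylk call ended without double knockout replicate 4 or triple knockout replicate 2, and that of Synpo2 without double knockout replicate 1 or triple knockout replicate 2 (adjusted p up to 0.0549 and 0.0539). The call of Acta2 ended without double knockout replicate 4 or triple knockout replicate 2, 3 or 5, of Des without double knockout replicate 4 or 5 or triple knockout replicate 2 or 3, and of Myh11 in all leave-outs but double knockout replicate 2 and triple knockout replicate 1 (adjusted p up to 0.0780, 0.0728 and 0.118). Those of Lum, Fbln1 and Fn1 ended without any 1 of the 7 deciding libraries, and that of Timp2 without any of these but double knockout replicate 5 (adjusted p up to 0.139, 0.0882, 0.134 and 0.0938).

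**Figure D4:**
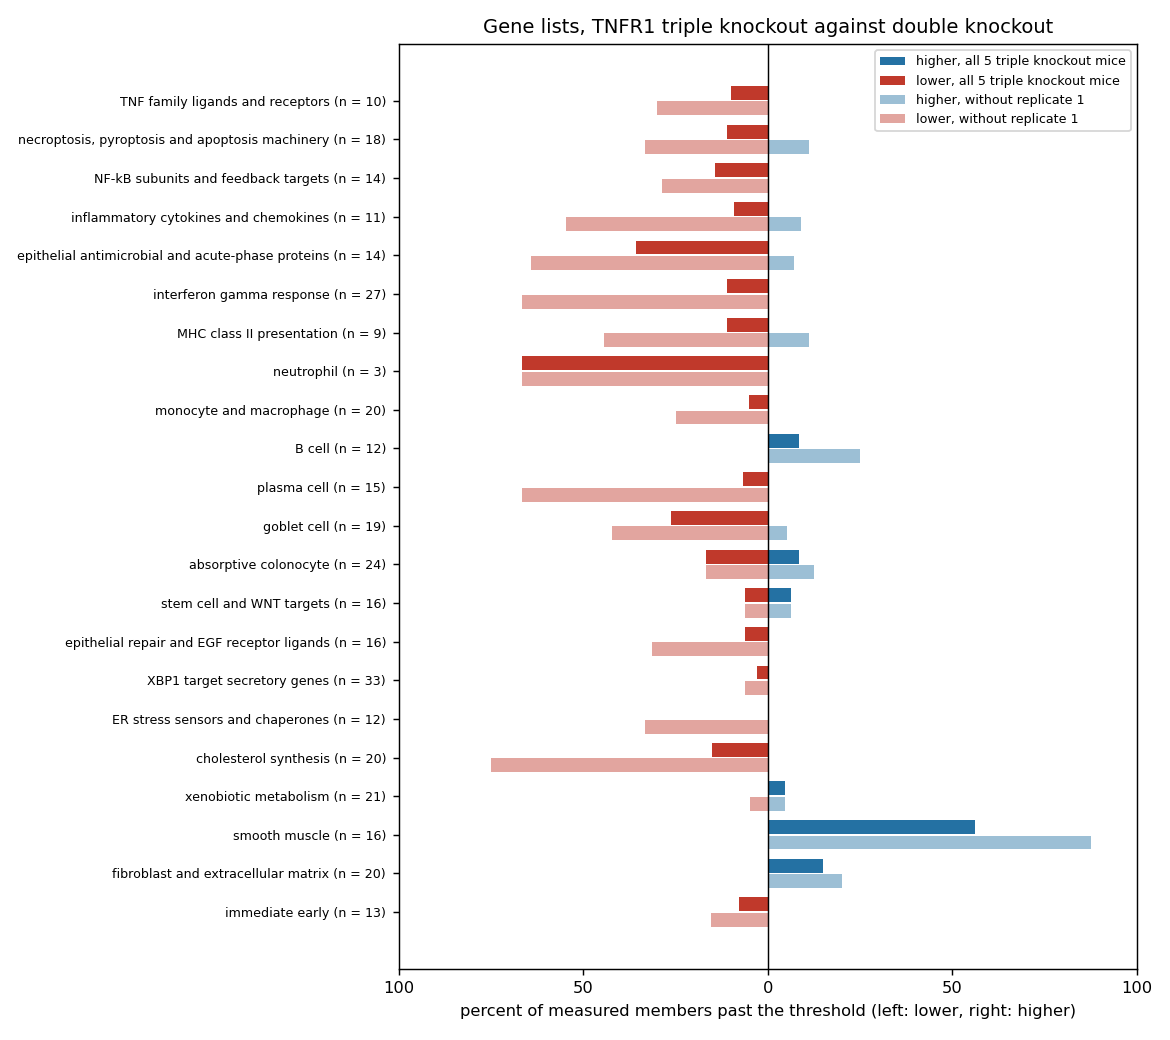
Percent of measured members of each list called lower (left, red) or higher (right, blue) in the TNFR1 triple knockout against the double knockout, with all 5 triple knockout mice (dark) and without replicate 1 (light); lists with at least 2 calls in either fit are shown. For the interferon gamma list the lower count goes from 3 to 18 of 27, and for the smooth muscle list the higher count goes from 9 to 14 of 16.

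Genes near Tnfrsf1a on chromosome 6 held a larger share of calls than the rest. Within 20 Mb of its start 25 of 269 genes were called (9.29%), 3 higher and 22 lower, against 338 of 15189 other genes (2.23%). BC064078 was at 0.49, 0.256, 0.199, 1.24 and 1.14 CPM in double knockout replicates 1 to 5 and at 16.5, 14.8, 23.5, 20.2 and 9.50 CPM in TNFR1 triple knockout replicates 1 to 5. The groups did not overlap, and the means differed by 4.66 ± 0.583 (SE) on the log2 scale (adjusted p = 5.38e-05). Across the other genotypes BC064078 averaged 10.8 ± 3.91 CPM in WT, 11.1 ± 9.64 CPM in the Xbp1 knockout, 0.519 ± 0.398 CPM in the Casp8 knockout and 0.664 ± 0.498 CPM in the MLKL triple knockout. The 3 genotypes with means under 1 CPM were those labelled with the Casp8 deletion and without the TNFR1 deletion. Rhno1 was at 16.02, 14.8, 15.3, 12.1 and 16.4 CPM in double knockout replicates 1 to 5 and at 5.59, 6.57, 4.88, 6.003 and 8.37 CPM in TNFR1 triple knockout replicates 1 to 5. Rhno1 (chr6:128357000-128362911, minus strand), which acts in the DNA damage checkpoint, differed by -1.25 ± 0.166 (SE) (adjusted p = 8.23e-05) with no overlap. It averaged 9.08 ± 1.79 CPM in WT, 7.77 ± 1.31 CPM in the Xbp1 knockout, 13.1 ± 1.86 CPM in the Casp8 knockout and 14.7 ± 2.18 CPM in the MLKL triple knockout, so its 3 lower means were in the genotypes where BC064078 was higher. Gm26770 overlaps Rhno1 on the opposite strand and fell with it (-1.38, adjusted p = 9.67e-05); without a stated strand setting their reads cannot be told apart. Clec2h and Clec2j, lectin-like genes of a cluster of similar copies in the same region, went in opposite directions (-1.09 and 3.45, adjusted p = 0.00463 and 0.00557), and reads could be divided between such copies. Emp1, described above, also lies in this window, as do Gucy2c and Tnfrsf1a itself. Stk38l, a kinase gene on the same chromosome outside the window, differed by -1.59 ± 0.263 (SE) (adjusted p = 0.00127). With genes within 20 Mb of the 4 targeted loci left out of the fit, 274 genes were called, 140 higher and 134 lower.

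**Figure D5:**
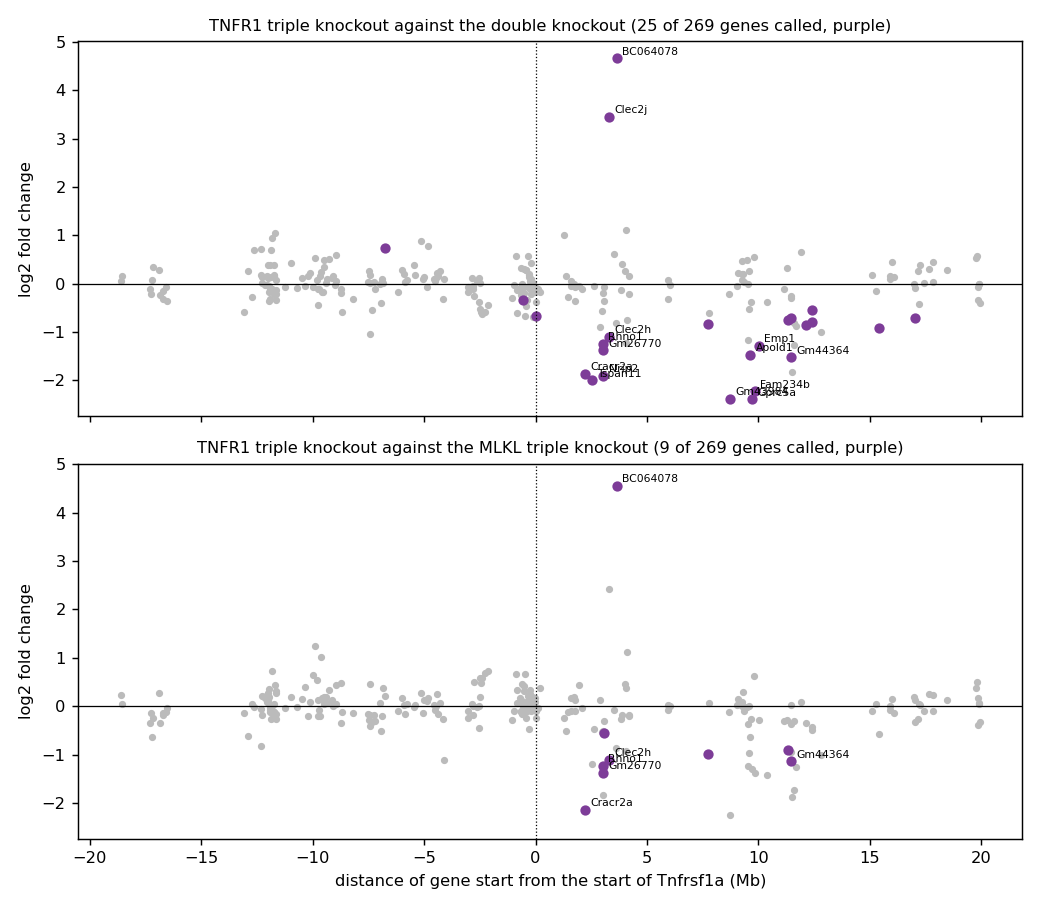
Log2 fold change of the 269 genes tested within 20 Mb of Tnfrsf1a against the distance of their start from its start in Mb, for the TNFR1 triple knockout against the double knockout (top) and against the MLKL triple knockout (bottom); purple points are called genes. The 25 called genes in the top panel lie mostly to the right of Tnfrsf1a, at higher coordinates (22 of them), and 9 genes are called in the bottom panel.

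The TNFR1 triple knockout was last set against the MLKL triple knockout, which carries the same Xbp1 and Casp8 deletions and lacks Mlkl in place of epithelial TNFR1. Only 40 of 15458 genes (0.259%) passed, 14 higher (0.0906%) and 26 lower (0.168%) in the TNFR1 triple knockout. At an unadjusted p under 0.05 there were 1321 genes. Without TNFR1 triple knockout replicate 1 the count was 35. DESeq2 called 86 and a fit without a low-count filter 72. All 5 mice of the MLKL group were female. Clca1, a secreted goblet cell protein, was at 1731, 1806, 1655, 1392 and 1699 CPM in MLKL triple knockout replicates 1 to 5 and at 965, 679, 684, 416 and 739 CPM in TNFR1 triple knockout replicates 1 to 5. The groups did not overlap, and the difference was -1.25 ± 0.184 (SE) (adjusted p = 0.000472). Mptx1, a mucosal pentraxin, was at 1159, 995, 1315, 762 and 732 CPM and at 56.2, 239, 331, 137 and 333 CPM in the same order, again with no overlap (-2.18 ± 0.386 (SE), adjusted p = 0.00516), and the double knockout was low as well, at 98.4, 249, 288, 229 and 144 CPM. Clca1 too was low in the double knockout. It ran from 361 to 965 CPM over the double and TNFR1 triple knockout libraries, below every MLKL triple knockout library. In the fit of only the TNFR1 triple and double knockout, Clca1 differed by 0.25 (adjusted p = 0.65). Tff3 was the other goblet cell gene of the list called (-0.82, adjusted p = 0.00516), and Rhno1 and Stk38l were lower too (-1.23 and -1.77, adjusted p = 0.000141 and 0.000472). Higher in the TNFR1 than in the MLKL triple knockout were Mucl1 (4.08, adjusted p = 0.00328), the lipid remodelling gene Cwh43 (1.82, adjusted p = 0.00516), the Rac activator Tiam1 (1.30, adjusted p = 0.0052) and the synaptotagmin Syt8 (1.36, adjusted p = 0.0052). The metal-binding protein Mt2 was also higher (1.79, adjusted p = 0.0357). In the fit of only the TNFR1 triple and double knockout, Mucl1 differed by 3.13 (adjusted p = 0.111). There Cwh43, Tiam1, Syt8 and Mt2 differed by -0.63, 0.24, 0.05 and -0.58 (adjusted p = 0.295, 0.651, 0.948 and 0.558). No gene of the antimicrobial, cytokine, interferon gamma, smooth muscle or cholesterol lists passed against the MLKL triple knockout by edgeR, DESeq2 or limma voom. Of these lists 2, 4, 1, 0 and 2 genes were at an unadjusted p under 0.05. Their median log2 differences were 0.69, 0.74, 0.06, 0.04 and -0.21. Some other lists differed more. At an unadjusted p under 0.05 were 9 of 19 goblet cell, 8 of 21 xenobiotic and 7 of 24 absorptive genes. So were 6 of 9 class II genes (median 0.73, none called by the 3 methods) and 4 of 7 metallothionein and zinc genes. DESeq2 called 3 and limma voom 5 goblet cell genes. Near Tnfrsf1a 9 of 269 genes were called (3.35%), against 0.204% of the other genes, BC064078 and Rhno1 among them.

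The size of the comparison with the double knockout rests on the spread estimate and on single mice. A fit of only the 10 libraries called 30 genes, and leaving out 1 library gave 61 genes without triple knockout replicate 2 and 74 without double knockout replicate 1. DESeq2 and limma voom called 2 and 9 antimicrobial genes, 2 and 7 interferon gamma response genes, 9 and 4 cholesterol genes and 9 and 10 smooth muscle genes. Of the 62 genes that the naming rule took and that passed, 26 passed in all 10 leave-outs; members named for having passed are not among the 62. Without double knockout replicate 1 no gene passed on the cell death, cytokine, class II, B cell, plasma cell, macrophage or fibroblast lists, and in the fit of only the 2 groups the lists held at most 1 called gene each, except 2 absorptive and 2 B cell genes. Sex as a term left 264 calls, 150 higher and 114 lower (197 shared with the 363), and 931 without replicate 1. The fit within females called none (799 at an unadjusted p under 0.05) and within males 1 (1666), each against a single mouse on 1 side.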

How the data were processed

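Total colon RNA (2 µg per mouse, RIN above 7 per the labels' protocols) was sequenced as 3′ tags with the QuantSeq FWD kit. The authors deposited estimated counts per Ensembl gene; the submitters' processing notes name cutadapt 3.2, Subread, featureCounts 2.01 and R 4.0.0 and the build GRCm38 (mm10). No source used here gives the strand setting or says what made some counts fractional. Of the values above 0, 11.2% were not whole, and they were rounded. Every column matched 1 sample by its name. GENCODE gave symbols for 55141 of 55487 gene IDs, and IDs without one held 0.0190% of reads.

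Counts of all 30 libraries entered 1 edgeR 4.0.16 quasi-likelihood fit (R 4.3.3) with TMM normalization and the edgeR expression filter, which kept 15458 genes; the groups share 1 estimate of spread. Adjusted p under 0.05 was the threshold (Benjamini-Hochberg). Depth was 3516792.6 to 5823059.7 reads per library, so 0.232 CPM is about 1 read in the median library and genes of few reads are imprecise. Sex was read from Xist and Y-linked genes, because the labels give none.

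The members and the 41 gene lists (590 of 712 listed genes measured) were chosen with earlier results of these data known. Genes named were the targeted genes, the TNF ligands and receptors, 12 higher and 12 lower genes by p among those called that differed at least 2-fold, leaving out Xist, Y-linked genes, antigen receptor segments and clone-named genes, up to 3 of smallest p per list, the 4 of smallest p called within 20 Mb of Tnfrsf1a, and the 4 of smallest p in each direction against the MLKL triple knockout. Other list members are named because they passed and were chosen after their values were seen. Some genes the rule names are not reported here. Promoter windows are from RefSeq (GRCm38.p6).

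Alternatives were DESeq2 1.42.0, limma 3.58.1 voom with quality weights, DESeq2 size factors, no or a stricter filter (10 CPM in 5 libraries), only the compared groups, sex, a replicate block, no genes near the targeted loci, and leaving out libraries.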

Additional observations from a re-analysis of the deposited data

Results flagged for a closer look

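Among the 5 libraries of a group, a single library was far from the other 4 in 41 of 370 sets of values, by a gap of over 0.71 of the range. For independent, normally distributed values chance gives about 1 in 20. These sets share libraries and genes, so the count cannot be set against that rate. Of the 41 sets, 24 were in TNFR1 triple knockout replicate 1.

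In TNFR1 triple knockout replicate 1 the mean log2 CPM was highest of its group for the cell death list (6.01, others 5.38 to 5.55), cytokines (3.63, others 2.12 to 2.49), antimicrobial genes (5.01, others 3.23 to 3.60), interferon gamma response genes (6.13, others 3.81 to 4.47), repair genes (5.75, others 5.08 to 5.19) and stress sensors (6.70, others 6.18 to 6.29). It was lowest for neuron and glia genes (2.55, others 3.21 to 3.42).

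The same library was highest of its group for the death genes Mlkl (30.2 CPM, others 6.80 to 11.3) and Tnfsf10 (14.8 CPM, others 2.49 to 5.55), and for Xbp1 (109 CPM, others 52.2 to 62.9). Among inflammatory genes it was highest for Tnfaip2 (33.3 CPM), Nos2 (9.73 CPM), Ido1 (4.13 CPM), Gbp2 (128 CPM), S100a8 (3.89 CPM), S100a9 (6.57 CPM) and Fcgr4 (14.4 CPM). Antiviral genes stood out there too, with Oas2 at 46.2 CPM, the nucleic acid sensor Zbp1 at 75.6 CPM (others 7.51 to 17.2) and the RNA sensor Ddx58 at 69.3 CPM (others 18.9 to 28.01). The plasma cell gene Mzb1 was at 16.8 CPM, the goblet cell gene Galnt12 at 55.0 CPM, the ileal bile acid binding gene Fabp6 at 35.0 CPM (others 7.99 to 11.6) and the chaperone gene Hsph1 at 64.2 CPM (others 22.4 to 32.8).

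Other triple knockout libraries that stood apart were replicate 2 for the stress gene Ddit4 (91.0 CPM), replicate 3 for Lrrc26 (32.6 CPM, highest), Tradd (82.8 CPM, lowest) and mt-Nd6 (2085 CPM, highest), and replicate 4 for the plasminogen activator Plat (1.20 CPM, lowest).

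In the double knockout, replicate 1 was highest for Tradd (175.6 CPM, others 109 to 119.7), the junction gene Cldn3 (529.7 CPM) and the zinc importer Slc39a4 (405 CPM). Replicate 2 was highest for adipose genes (mean log2 CPM 4.28, others 2.81 to 3.202), with Adipoq at 7.42 CPM, and for the B cell genes H2-Ob (6.91 CPM) and Ighd (7.16 CPM) and Crabp2 (0.767 CPM), and lowest for the chaperone gene Dnajb1 (34.0 CPM). Replicate 3 was highest for Krt15 (5.78 CPM), and replicate 4 for Il1b (53.4 CPM) and Ido1 (26.5 CPM).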

How the results depend on the processing

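Counts are of genes past the threshold. Against the double knockout the count of 363 was 30 in the fit of only the 2 groups, 0 within females (edgeR; 799 at an unadjusted p under 0.05) and 1 within males. Leaving out 1 library gave 61 (without TNFR1 triple knockout replicate 2) to 917 (without replicate 1), with 74, 729, 564, 108 and 149 without double knockout replicates 1 to 5 and 191, 121 and 108 without triple knockout replicates 3 to 5. Leaving out replicate 1 of both groups gave 596. 2 fits were chosen after seeing the data, both without TNFR1 triple knockout replicate 1: 1 gene within females and 931 with sex as a term. Against the MLKL triple knockout the count of 40 was 21 in the fit of only the 2 groups, 72 with no low-count filter, 86 in DESeq2, and 20 (without TNFR1 triple knockout replicate 4) to 52 (without MLKL triple knockout replicate 5) in leave-outs. A fit within males was not possible there. The other alternatives, leave-outs aside, stayed within 1.5 times of each count, at 264 to 533 and 37 to 47. The sign turned for Crabp2 within males (-3.09), and within females for Gsdmd (0.00762), Gbp2 (0.68) and Jund (0.098, and 0.103 without replicate 1). Each rests on 1 mouse on 1 side. For Gsdmd and Gbp2 the sign within females did not turn without TNFR1 triple knockout replicate 1, a female. The cause of these changes was not tested beyond the libraries left out.

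Replicate numbers did not pair the mice: same-numbered libraries of the triple and double knockout correlated at -0.165 to 0.0646 in their deviations from the group means. With a replicate block the counts were 289 (128 higher, 161 lower) and 42.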

Other observations

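Type I interferon genes were high in single libraries of other genotypes as well. Mean log2 CPM of the 26 genes was 6.29 in Xbp1 knockout replicate 5 and 6.68 in MLKL triple knockout replicate 5, against 5.69 in TNFR1 triple knockout replicate 1. The other 4 libraries of each group were at 2.47 to 2.89, 3.24 to 3.64 and 2.75 to 3.61, and WT libraries at 2.17 to 2.64.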
